A study of Mus musculus with 44 samples.

Results

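Id2, Id3 and Id4, the members of the Id (inhibitor of DNA binding) family with a measurement here, were followed across 44 mice in the ribosome-associated RNA of amygdala Crh neurons. They were selected on family membership and on their measured log2 levels across the groups TA, FC and EXT and the batches, and they are 3 of the 8203 genes measured. Id1, which completes the family, was not analysed here. Because the groups and batches were used to choose the genes, their levels by group and batch are given as a description, with errors and without a test. All mice were adult Crh-TRAP animals, in which a Crh-driven Cre recombinase (transgene Tg(Crh-cre)1Kres) switches on ribosomal protein L10a fused to GFP. RNA held by the labelled ribosomes is then pulled down through the GFP (translating ribosome affinity purification, TRAP). Every group therefore carries both transgenes, and the mark follows cells in which the transgenic Crh promoter has been active. The input was tissue punched from both amygdalae, so RNA of neighbouring cells can be carried along. TA mice (tone alone, n = 16, 10 males and 6 females) heard 5 tones without shock, FC mice (fear conditioning, n = 12, 6 males and 6 females) heard 5 tones each paired with a foot shock, and EXT mice (extinction, n = 16, 10 males and 6 females) were conditioned in the same way and heard 30 tones without shock in another context on the following day.

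Id proteins have a helix-loop-helix domain but lack the basic region with which related factors grip DNA. They bind the ubiquitous E proteins (Tcf3, Tcf4 and Tcf12) and keep them, and the tissue-specific bHLH factors that need them, away from E-box sequences. Their genes are classical targets of bone morphogenetic protein (BMP) signalling through Smad factors, and in the brain they are expressed in progenitors, astrocytes, endothelium and some neurons.

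Id2 lies on chromosome 12 from 25093799 to 25097140 on the minus strand, Id3 on chromosome 4 from 136143497 to 136145755 on the plus strand, and Id4 on chromosome 13 from 48261228 to 48266026 on the plus strand (GRCm38, GENCODE M21). The 250 bases before the RefSeq start of each gene (build GRCm38.p6) are printed 5′ to 3′ on the gene's strand. Whether these sequences bear on the levels measured here was not tested. The RefSeq starts are not the GENCODE starts. The Id2 and Id3 windows lie inside the GENCODE spans just given, so they may hold transcribed sequence, while the Id4 window lies before its span. Capitals mark 3 motifs searched on both strands, which are the E box CANNTG bound by bHLH dimers, the core TGACG of the cAMP response element, and the element GGCGCC known from BMP-responsive promoters.
Id2 (chr12:25096093-25096342, minus strand): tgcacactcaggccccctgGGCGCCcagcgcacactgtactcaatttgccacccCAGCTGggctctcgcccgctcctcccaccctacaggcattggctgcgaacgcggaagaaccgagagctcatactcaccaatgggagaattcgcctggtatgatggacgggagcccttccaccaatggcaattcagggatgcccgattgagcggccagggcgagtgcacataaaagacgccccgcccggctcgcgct
Id3 (chr4:136143572-136143821, plus strand): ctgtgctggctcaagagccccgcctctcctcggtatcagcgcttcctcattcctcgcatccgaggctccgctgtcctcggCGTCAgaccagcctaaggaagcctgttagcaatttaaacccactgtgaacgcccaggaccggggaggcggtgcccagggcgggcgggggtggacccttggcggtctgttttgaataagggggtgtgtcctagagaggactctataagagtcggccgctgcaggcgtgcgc
Id4 (chr13:48260866-48261115, plus strand): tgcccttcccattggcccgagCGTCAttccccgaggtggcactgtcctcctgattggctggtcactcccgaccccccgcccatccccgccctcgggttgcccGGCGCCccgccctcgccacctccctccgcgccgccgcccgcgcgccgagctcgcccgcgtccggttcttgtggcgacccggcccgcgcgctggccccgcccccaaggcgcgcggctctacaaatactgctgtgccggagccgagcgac
The Id2 window held 1 E box (CAGCTG) and 1 GGCGCC, the Id3 window held 1 TGACG core, which reads CGTCA on the gene's strand, and the Id4 window held 1 such core and 1 GGCGCC. Among 32851 RefSeq windows of the same length, 66.2% held an E box, 17.8% the core and 9.59% GGCGCC. The full response element TGACGTCA, which contains the core, was in 1.55% of the windows and in none of these 3. The GC content was 62.8%, 62.8% and 75.6% for Id2, Id3 and Id4, against a median of 52.4% over all windows.

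The values were log2 cpm, that is, read counts relative to library size on a log2 scale. Effective library sizes of 12802113 to 20440351 reads were found, with a lower median in EXT mice (15412341) than in TA mice (18015590) and FC mice (16977973). The labels name 5 batches without saying what they were, and batches 3 and 4 hold 6 EXT mice and no others, so batch and group cannot be told apart there. Batch 1 holds 9 of the 18 females and 2 of the 26 males. The sex labels could not be checked well from expression, since for Eif2s3x, Ddx3x and Kdm5c, X-linked genes that escape inactivation, 3, 4 and 4 of the 18 females lay above all males. Of 22 markers of GABAergic neurons of the central amygdala, 20 had a row, Crh among them, while Slc32a1 and Dlx6 had none. Of 25 astrocyte markers 24 had a row, and of 15 oligodendrocyte markers 14. For endothelial and mural markers it was 6 of 18, and for markers of choroid plexus and ependyma 4 of 11. Genes were kept by a minimum cpm in all samples, so a count of rows is not a level. The choroid plexus and ependyma markers summed to 187 to 27465 cpm in TA, 673 to 19373 in FC and 186 to 51048 in EXT mice. Their highest gene, Ttr, averaged 5689 cpm, and Penk, the highest of the GABAergic list, 2004. In these bulk samples fewer cells of a type and less RNA per cell cannot be told apart.

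All 3 genes were well covered. The lowest value of any of them was 204 reads, for Id3 in animal 10, a TA female of batch 1. Per kilobase of exon, the median over the 44 mice was 40.5 cpm for Id4, 39.8 for Id2 and 29.6 for Id3. The order was not fixed, since Id4 was highest and Id3 lowest in 16 mice, Id2 highest and Id3 lowest in 14, and another order held in the other 14 mice. The Id2 and Id4 levels per kilobase thus changed places between mice, and Id3 was the lowest of the 3 in 30 mice.

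Id2, an inhibitor with wide roles in neural progenitors and neurons, ranged in TA mice from 4.57 to 7.43 log2 cpm with a median of 6.41. In FC mice its range was 5.16 to 7.67 with a median of 6.77, and in EXT mice it went from 5.27 to 7.27 with a median of 6.84. The groups overlapped over most of their range, and the SD was 0.88 (n = 16) in TA, 0.71 (n = 12) in FC and 0.53 (n = 16) in EXT mice. Id3, an inhibitor strongly expressed in glia and vessels, ranged from 3.32 to 7.12 with a median of 5.32 in TA mice. In FC mice its range was 5.05 to 6.50 with a median of 6.02, and in EXT mice 4.43 to 6.47 with a median of 5.87. The lowest and the highest Id3 values of the whole set were both from TA mice, and 11 of 12 FC mice lay above the TA median. Id4, which is associated with neural stem cells and astrocytes, ranged from 6.52 to 7.98 with a median of 7.10 in TA mice, from 7.03 to 7.96 with a median of 7.56 in FC mice, and from 6.91 to 8.01 with a median of 7.28 in EXT mice. Again 11 of 12 FC mice, and 15 of 16 EXT mice, lay above the TA median. In the order of the group means, FC, EXT and TA for Id3 and Id4 and EXT, FC and TA for Id2, neighbouring groups differed by less than the SD within the TA group.

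**Figure D1:**
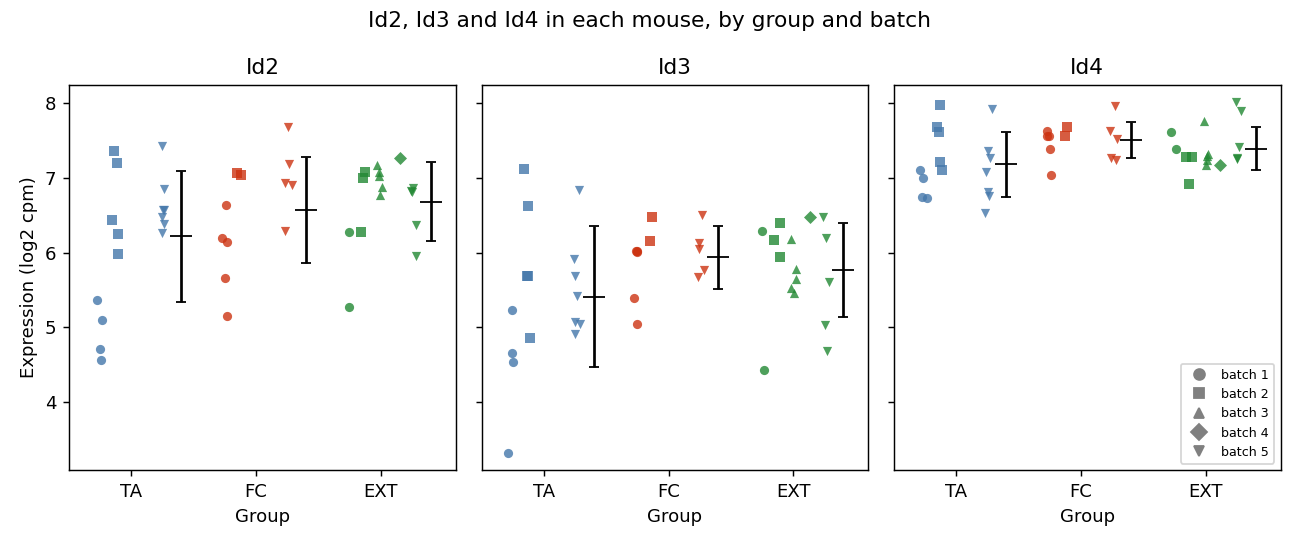
Log2 cpm of Id2, Id3 and Id4 (y axis) in each of the 44 mice, by group (x axis and colour) and batch (marker shape), with the mean and SD of each group in black. The 4 TA mice of batch 1 lie low for Id2 (4.57 to 5.36) and Id3 (3.32 to 5.23), and the groups overlap for all 3 genes.

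The batches differed most for Id2. Batch explained 57.2% of the variance of Id2, 22.7% of that of Id3 and 3.77% of that of Id4, against a median of 41.5% over all genes, and 99.11% of genes had a larger batch share than Id4. The TA mice of batch 1 (n = 4, 3 of them female) had a mean Id2 of 4.93 ± 0.36 (SD), against 6.65 ± 0.60 (n = 5) and 6.65 ± 0.39 (n = 7) in the TA mice of batches 2 and 5. Id3 was 4.44 ± 0.80 in the TA mice of batch 1, against 5.996 ± 0.88 and 5.55 ± 0.67, and Id4 was 6.90 ± 0.18, against 7.52 ± 0.36 and 7.10 ± 0.47. The comparisons that follow are given with and without batch 1, which was left out after its values were seen.

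FC vs. TA sets tones paired with shock beside tones alone, so the shock itself and its pairing with the tone cannot be told apart. By quantitative PCR of amygdala punches from a separate cohort, the study reported lower Id3 after tone alone than in home cage mice. TA is thus not a home cage baseline. With batch as categories and sex in the model, the FC mean of Id2 was 0.60 log2 units above TA (standard error 0.18, 95% interval 0.23 to 0.96), a 1.51-fold difference. For Id3 the difference was 0.72 (standard error 0.23, interval 0.25 to 1.19), or 1.64-fold, and for Id4 it was 0.39 (standard error 0.13, interval 0.13 to 0.65), or 1.31-fold. Of the 8203 genes, 7 had a higher difference than Id3, 26 than Id2 and 122 than Id4, the median of all genes being -0.0041. These ranks and intervals are a description only and not evidence that the Id genes stand out, since the choice of genes used these groups. No gene passed an FDR of 0.05 in limma (0% of genes), so 0 of the 3 did. All 3 were among the 706 genes higher at an unadjusted p under 0.05 (8.61% of genes), from which nothing is read because these groups were used to choose them.

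Within batches the FC mean was above the TA mean for each member in batches 1, 2 and 5. For Id2 the difference was 1.03 in batch 1 (5 FC and 4 TA mice), 0.41 in batch 2 (2 and 5 mice) and 0.35 in batch 5 (5 and 7 mice). Id3 differed by 1.26, 0.32 and 0.47, and Id4 by 0.54, 0.10 and 0.42. In batch 1, 4 of the 5 FC mice lay above all 4 TA mice for each gene, while in batch 2 no FC mouse did. Without batch 1 the fitted differences were 0.37 for Id2 (interval -0.06 to 0.80), 0.42 for Id3 (-0.15 to 1.00) and 0.32 for Id4 (-0.04 to 0.67). Without animal 10 alone, Id3 differed by 0.58 (standard error 0.21).

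Marker lists of several cell types were shifted beside the Id genes in this comparison. Of the 24 astrocyte markers measured, 23 were higher in FC than in TA mice. Of these 15 had an unadjusted p under 0.05 and 0 reached the FDR threshold, with a median difference of 0.51. Over all 8203 genes 49% were higher, with 706 (8.61%) higher and 673 lower at that p in limma. GABAergic neuron markers were higher in 7 of 20 cases (median -0.09, 3 lower at that p). The next levels are those of the astrocyte markers. Their summed level ranged from 2246 to 9796 cpm in TA mice (median 5559), from 3712 to 9058 in FC mice (median 6996) and from 3660 to 10332 in EXT mice (median 7577). Oligodendrocyte markers were higher in 13 of 14 cases (median 0.29, 1 at an unadjusted p under 0.05), and choroid plexus and ependymal markers in 0 of 4 (median -0.95, 2 lower at that p). The astrocyte score, the mean z of its list, averaged -0.987 in the TA mice of batch 1, the lowest of all sets of one group and batch. With the score as a covariate, a fit chosen after the data were seen, the FC vs. TA differences were 0.23 (standard error 0.14) for Id2, 0.22 (0.17) for Id3 and 0.23 (0.13) for Id4. With a GABAergic neuron score in its place they were 0.47, 0.61 and 0.35. Whether the Id transcripts came from astrocyte RNA in the pull-down was not tested.

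**Figure D2:**
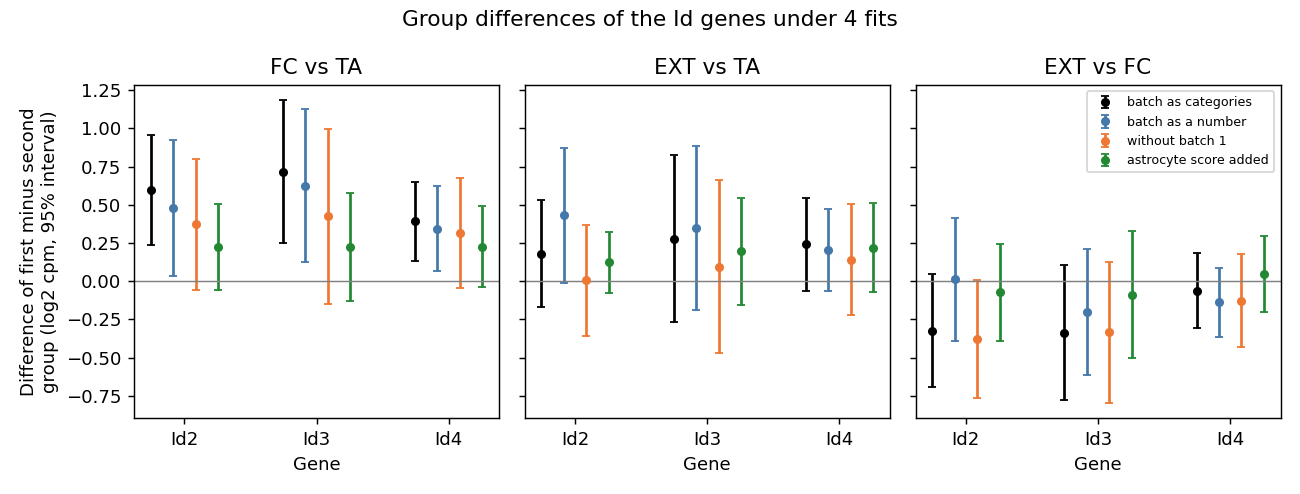
Fitted difference in log2 cpm (y axis, point and 95% interval) of each Id gene (x axis) in FC vs. TA, EXT vs. TA and EXT vs. FC, with batch as categories, batch as a number, batch 1 left out, or the astrocyte score added. The FC vs. TA differences fall from 0.60, 0.72 and 0.39 to 0.23, 0.22 and 0.23 once the score is in the model. Over all genes in FC vs. TA, the share at an unadjusted p under 0.05 in limma falls from 16.8% to 8.91%. In EXT vs. TA the Id differences go from 0.18, 0.28 and 0.24 to 0.12, 0.195 and 0.22, and that share from 21.1% to 21%.

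EXT vs. TA compares mice that learned and then extinguished with mice that heard tones alone, so it holds both kinds of training. It also holds the time since training, as EXT mice were killed on the following day and TA mice on the training day. The EXT mean was above TA by 0.18 (standard error 0.17, interval -0.17 to 0.53) for Id2, by 0.28 (0.27, -0.27 to 0.83) for Id3 and by 0.24 (0.15, -0.06 to 0.55) for Id4. Genes past the FDR threshold numbered 2 (0.0244% of genes), Fos at -0.90 and Iars at -0.60 (both adjusted p = 0.033 in limma), and the Id genes were not among them. An unadjusted p under 0.05 was reached by 1733 genes (21.1%), again without any Id gene, and nothing is read from either count for the members, since these groups were used to choose them. When batch entered as a number, 1755 genes (21.4%) passed the FDR threshold, 0 of them members, and the differences were 0.43 for Id2, 0.35 for Id3 and 0.21 for Id4. Within batches, EXT minus TA was 0.84, 0.14 and -0.08 for Id2 in batches 1, 2 and 5, with 2, 3 and 5 EXT mice. It was 0.92, 0.17 and 0.05 for Id3 and 0.60, -0.36 and 0.46 for Id4. Without batch 1 the fitted difference was 0.01 for Id2, 0.10 for Id3 and 0.14 for Id4, so the Id2 and Id3 values rested largely on that batch. With log2 library size, which was lower in EXT mice, as a covariate the differences were 0.35, 0.48 and 0.29 (standard errors 0.21, 0.34 and 0.19). Of the astrocyte markers, 17 of 24 were higher in EXT than in TA mice, with a median difference of 0.08. With numeric batch 23 of 24 were higher, 5 of them past the FDR threshold, with a median of 0.38. Over all 8203 genes 51.5% were higher, or 50.8% with numeric batch, where 854 higher and 901 lower genes passed the FDR threshold. GABAergic neuron markers were higher in 10 of 20 cases (median 0.01), or in 6 of 20 with numeric batch (median -0.21). In the latter fit 2 of them were higher and 4 lower past the FDR threshold. Oligodendrocyte markers were higher in 1 of 14 cases (median -0.10), or in 9 of 14 with numeric batch (median 0.21).

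EXT vs. FC sets extinction beside conditioning alone. Per the methods, FC mice were killed on the day of the shocks and EXT mice after the session of the following day. Extinction, the added tones, the other context and the time since shock therefore cannot be told apart here. The EXT mean was below FC by values of -0.32 (standard error 0.18, interval -0.69 to 0.05) for Id2, -0.34 (0.21, -0.78 to 0.10) for Id3 and -0.06 (0.12, -0.31 to 0.18) for Id4. No gene passed the FDR threshold in limma (0% of genes), and 344 genes (4.19%) had an unadjusted p under 0.05, none of them an Id gene, from which again nothing is read. Without batch 1 the Id differences were -0.38, -0.33 and -0.13 (standard errors 0.19, 0.22 and 0.15). In the same comparison 0 of 24 astrocyte markers were higher in EXT mice, 5 were lower at an unadjusted p under 0.05, and the median difference was -0.35. Oligodendrocyte markers differed further, with 0 of 14 higher, 5 lower at that p and a median of -0.50. GABAergic neuron markers were higher in 11 of 20 cases (median 0.09, 1 higher at that p). Over all genes 53.2% were higher, with 182 higher and 162 lower at that p. With numeric batch 11 of 24 astrocyte markers (median -0.01) and 4 of 14 oligodendrocyte markers (median -0.15) were higher. GABAergic markers were then higher in 6 of 20 cases (median -0.24), and 52.1% of all genes were higher. With the astrocyte score as a covariate the Id differences were -0.07, -0.09 and 0.05, and the share of all genes at that p fell from 4.19% to 2%. The Id2, Id3 and Id4 differences were 0.01, -0.20 and -0.14 with a numeric batch term, and Id2 was at 0.05 with no batch term. All 3 comparisons share mice, so they are not independent of each other.

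Sex was not used to choose the genes and was tested. Across the 44 mice, with group and batch in the model, males differed from females by 0.04 (standard error 0.16) for Id2, 0.18 (0.21) for Id3 and 0.09 (0.12) for Id4, with an adjusted p of 1 for each in limma. The 95% intervals were -0.28 to 0.36, -0.25 to 0.61 and -0.15 to 0.33. No gene passed the FDR threshold (0% of genes), and 339 (4.13%) had an unadjusted p under 0.05. Without batch 1, which leaves 9 females, the differences were -0.03, 0.07 and 0.13, with adjusted p-values of 0.979, 0.957 and 0.858 in limma. Without a batch term they were 0.57, 0.50 and 0.14, and 597 genes (7.28%) passed, none of them an Id gene. The EXT vs. TA difference of Id3 was -0.13 in males and 0.92 in females, and that of Id2 was -0.08 and 0.56. The interaction of sex and group was -0.81 (standard error 0.48, adjusted p = 0.898 in limma) for Id3, -0.52 (0.31, adjusted p = 0.893) for Id2 and -0.01 (0.28, adjusted p = 0.999) for Id4, so a difference between the sexes was not shown. For FC vs. TA the interactions were 0.01 (standard error 0.36), -0.42 (0.46) and 0.19 (0.25) for Id2, Id3 and Id4, with adjusted p-values of 0.993, 0.833 and 0.877 in limma. Without batch 1 the EXT vs. TA interactions were -0.13 (0.36), -0.43 (0.55) and 0.15 (0.36) and the FC vs. TA interactions 0.69 (0.44), 0.17 (0.63) and 0.36 (0.38) for Id2, Id3 and Id4, with adjusted p-values from 0.565 to 0.997 in limma. No gene passed for either interaction (0% of genes), with 494 (6.02%) and 789 (9.62%) at an unadjusted p under 0.05.

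The members were next compared between mice of the same batch and group, where training and batch are constant. Deviations from the mean of each set of at least 3 mice were used (39 mice in 8 sets), with 100000 permutations within sets and adjustment over 30 relations. Id2 and Id3 deviated together with a Pearson r of 0.768 (permutation p = 1e-05, the smallest these permutations can give, adjusted p = 0.00015, Spearman rho = 0.773, rho permutation p = 1e-05). Without the 2 mice farthest from the median the r was 0.723, and within batches 1, 2 and 5 it was 0.647, 0.887 and 0.772. Id2 with Id4 gave an r of 0.512 (permutation p = 0.00308, adjusted p = 0.0115, rho = 0.455, rho permutation p = 0.0112), and Id3 with Id4 0.464 (permutation p = 0.0137, adjusted p = 0.0343, rho = 0.442, rho permutation p = 0.0196). Within batches 1, 2 and 5, with 9, 8 and 17 of these mice, the r of Id4 was 0.292, 0.624 and 0.584 with Id2. With Id3 it was 0.064, 0.654 and 0.588, so that no relation with Id3 was seen within batch 1. Whether r differs between batches was not tested. Without the 2 farthest mice the r of Id4 was 0.375 with Id2 and 0.317 with Id3. None of the 3 genes followed log2 library size (r = 0.109, 0.127 and 0.0545, adjusted permutation p = 0.55, 0.55 and 0.778 for Id2, Id3 and Id4).

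The astrocyte score followed the members within sets too. Its r was 0.740 with Id2 (permutation p = 1e-05, adjusted p = 0.00015, rho = 0.717, rho permutation p = 3e-05), 0.686 with Id3 (permutation p = 8e-05, adjusted p = 0.0006, rho = 0.529, rho permutation p = 0.00408) and 0.453 with Id4 (permutation p = 0.00662, adjusted p = 0.0199, rho = 0.439, rho permutation p = 0.0136). Without the 2 farthest mice r was 0.701, 0.648 and 0.475. For Id2 and Id3 it lay between 0.613 and 0.888 in each of batches 1, 2 and 5. For Id4 it was 0.015 in the 9 mice of batch 1, where no relation was seen, 0.509 in batch 2 and 0.747 in batch 5. These genes and scores come from the same libraries and were scaled together.

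**Figure D3:**
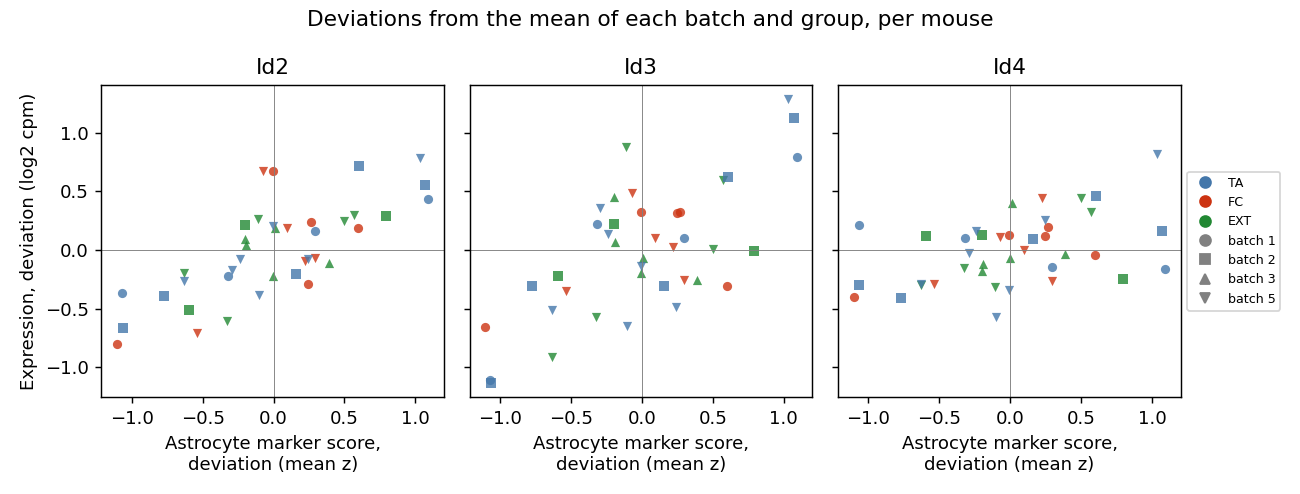
Deviation of each Id gene in log2 cpm (y axis) against the deviation of the astrocyte marker score in mean z (x axis) from the mean of the same batch and group, for 39 mice (colour: group, marker: batch). The points rise together for Id2 (r = 0.740) and Id3 (r = 0.686) and more loosely for Id4 (r = 0.453).

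The other cell type scores gave unlike values for the 3 genes. The GABAergic neuron score ran against Id2 (r = -0.687, permutation p = 2e-05, adjusted p = 0.0002, rho = -0.686, rho permutation p = 2e-05) and Id3 (r = -0.510, permutation p = 0.00103, adjusted p = 0.00441, rho = -0.467, rho permutation p = 0.00546), and its r with Id4 was -0.133 (permutation p = 0.457, adjusted p = 0.55). In batch 1 the r with Id3 was 0.502, opposite to batches 2 and 5 (-0.652 and -0.610). The glutamatergic score, from 5 of 11 markers, had an r of 0.653 with Id2 (permutation p = 0.00016, adjusted p = 0.00096, rho = 0.650, rho permutation p = 0.00012), 0.358 with Id3 (permutation p = 0.00754, adjusted p = 0.0206, rho = 0.424, rho permutation p = 0.00736) and 0.212 with Id4 (permutation p = 0.194, adjusted p = 0.319). The endothelial and mural score, from 6 of 18 markers, had an r of 0.435 with Id2 (permutation p = 0.00659, adjusted p = 0.0199, rho = 0.514, rho permutation p = 0.00177). Its r with Id3 was 0.407 (permutation p = 0.0214, adjusted p = 0.0493). By rank this Id3 relation was not past the threshold (rho = 0.3545, rho permutation p = 0.0441, adjusted p = 0.102). The choroid plexus score ran against Id4 (r = -0.536, permutation p = 0.00038, adjusted p = 0.0019, rho = -0.491, rho permutation p = 0.00285), with -0.737, -0.342 and -0.704 in batches 1, 2 and 5. Whether 2 members differ in these correlations was not tested. Oligodendrocyte and oligodendrocyte precursor scores had no relation at an adjusted p under 0.05 in these sets. The precursor score rests on only 2 of 6 markers, Cspg5 and Ptprz1. Its r with Id4 was 0.342 (permutation p = 0.051, adjusted p = 0.109), so a relation with precursors was neither shown nor excluded.

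**Figure D4:**
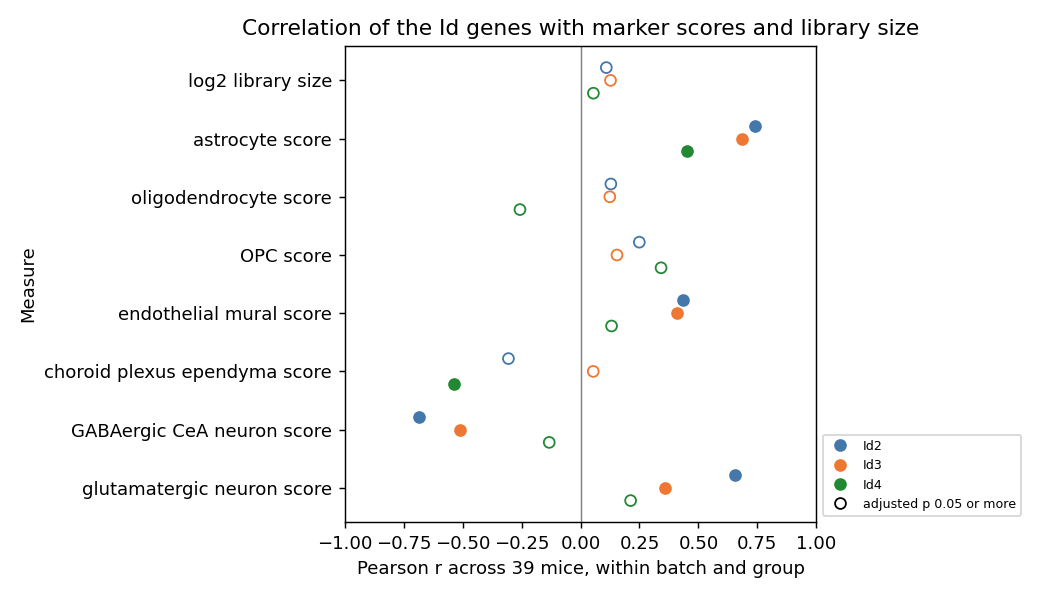
Pearson r (x axis) of Id2, Id3 and Id4 with log2 library size and 7 marker scores (y axis) over 39 mice, after removal of batch and group means, filled where the adjusted permutation p was under 0.05. The astrocyte score is positive for all 3 genes, and the GABAergic score is negative for Id2 (-0.687) and Id3 (-0.510).

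By the same deviations, the 5 genes most like Id2 were Gstm1 (r = 0.858), Prdx6 (0.854), Dbx2 (0.837), Tcf4 (0.822) and Thrsp (0.809). Gstm1 and Prdx6 encode a glutathione transferase and a peroxiredoxin, Dbx2 a homeodomain factor, and Tcf4 is itself an E protein that Id2 binds. Those most like Id3 were S100a6 (0.872), Dbi (0.837), Prdx6 (0.798), Ifitm3 (0.789) and Id2 (0.768). Those most like Id4 were Rab12 (0.794), Fhl1 (0.683), Sox2 (0.675), Ppp1r14c (0.656) and Myl9 (0.652), where Sox2 is a factor of neural stem cells and astroglia. These are descriptions over 39 mice without a test. Id3 was 8th among all genes in likeness to Id2, while Id4 was 211th to Id2 and 232nd to Id3.

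The other genes of the Id pathway were taken from lists of 126 genes, of which 47 had a row. In FC vs. TA 0 of 47 passed the FDR threshold in limma and 6 (12.8%) were under an unadjusted p of 0.05, with 3 in each direction, against 16.8% of all genes. In EXT vs. TA the counts were 0 and 9 (19.1%), 4 higher and 5 lower, against 21.1% of all genes, and in EXT vs. FC 0 and 3 (6.4%), against 4.19%. These shares were near those of all genes. With a numeric batch term, 10 of 47 (21.3%) passed in EXT vs. TA, against 21.4% of all genes, 6 higher (Mxi1, Usf2, Srebf2, Bmpr1a, Hipk2 and Elk1) and 4 lower (Usf1, Bhlhe40, Smad2 and Fzr1).

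The partners of the Id proteins come first. The E proteins Tcf3, Tcf4 and Tcf12 differed by 0.15 (standard error 0.10), 0.25 (0.18) and -0.04 (0.10) in FC vs. TA and by 0.12, -0.05 and -0.02 in EXT vs. TA, with adjusted p-values from limma between 0.433 and 0.94. Of 41 other bHLH genes 13 had a row. Mxi1, a Max partner that opposes Myc, was at 0.31 in EXT vs. TA (adjusted p = 0.175 in limma), and Hif1a, the oxygen-regulated bHLH-PAS factor, at -0.36 (adjusted p = 0.226). Among the repressors, where 4 of 9 genes had a row, Bhlhe40 was at -0.30 and Bhlhe41 at 0.32 (adjusted p = 0.287 and 0.326). Of the Rb and ETS partners 3 of 6 had a row, with the ETS factor Elk1 at 0.25 and the Rb relative Rbl2 at -0.09 (adjusted p = 0.184 and 0.663).

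Upstream of the Id genes, 3 of 25 BMP and TGF-β ligands and antagonists, 4 of 17 receptors and 13 of 20 Smads and their regulators had a row. Twsg1, which binds BMPs outside the cell, differed by 0.19 in EXT vs. TA and Fstl1, a follistatin-like secreted protein, by 0.12 (adjusted p = 0.4 and 0.663 in limma). The type I receptor Bmpr1a was at 0.19 in EXT vs. TA and 0.26 in FC vs. TA (adjusted p = 0.416 and 0.261), and Neo1, a receptor for repulsive guidance molecules, at -0.35 in EXT vs. TA (adjusted p = 0.218). Smad2, which carries TGF-β and activin signals, was at -0.43 (standard error 0.13) and the Smad-binding co-repressor Ski at 0.32 (0.10) in EXT vs. TA (adjusted p = 0.143 and 0.144), and they were at -0.11 and 0.15 in FC vs. TA. Of 5 genes of Id protein turnover 4 had a row, with Wdr48, a cofactor of the deubiquitinase Usp1, at -0.24 and Fzr1, an activator of the anaphase-promoting complex, at -0.28 in EXT vs. TA (adjusted p = 0.205 and 0.219). None of these differences passed the test with batch as categories.

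**Figure D5:**
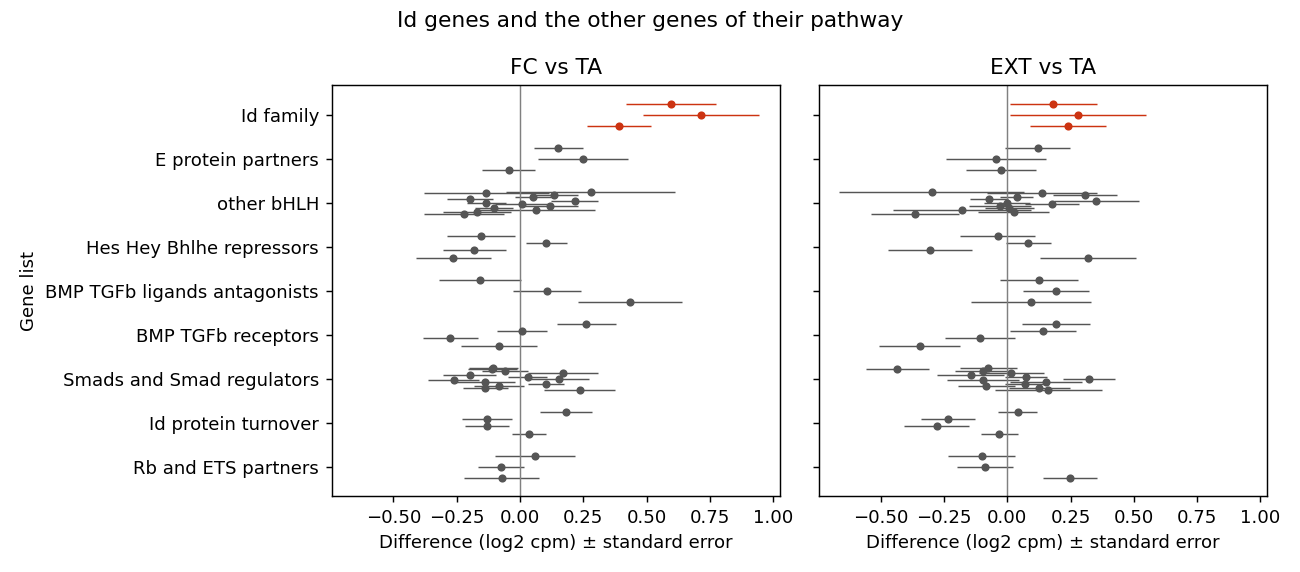
Fitted difference in log2 cpm with its standard error (x axis) of each measured gene of the Id family (red) and of 8 lists of its pathway (grey, y axis), in FC vs. TA and EXT vs. TA with batch as categories. In FC vs. TA the Id genes lie at 0.39 to 0.72, and 0 of the 47 other genes passed the FDR threshold in either comparison.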

How the data were processed

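Ribosome-associated polyA RNA was sequenced from 44 mice. Per the methods, the authors used Trimmomatic 0.36 for trimming and STAR for mapping to GRCm38, processed gene counts with edgeR, kept gene symbols above a minimum cpm in all samples, removed outlying samples and deposited voom log2 cpm values (reads plus 0.5, relative to the effective library size). Columns headed only by an animal number hold the same deposited log2 values. Whole reads were solved back from 360932 of 360932 values within 0.02. The lowest was 28 reads, and 57 genes had a value under 4 cpm in a mouse.

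Group, batch and sex came from the sample labels. How the batches arose is not given in the sources used here. Comparisons used lmFit and eBayes of limma 3.58.1 (R 4.3.3), two-sided, on the mice of both groups, with batch as categories, sex as a factor, Benjamini-Hochberg adjustment over 8203 genes and an FDR threshold of 0.05. The study controlled for batch and sex without naming the coding of batch. Batch was entered as categories because its number is a label. Methods were tested on simulated data. Python 3.11.15, numpy 2.4.6, pandas 2.3.3, scipy 1.17.1 and matplotlib 3.10.9 were used, with GENCODE M21 exon lengths and windows before RefSeq starts.

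Members and lists were chosen with earlier results of these data known. Named besides the members were pathway genes past the FDR threshold, otherwise the 2 with the smallest p per list in EXT vs. TA, and the 5 most similar genes to each member. The E protein Tcf12 was added to complete its list. Alternatives were a numeric or no batch term, batches 3 and 4 left out, 3 groups fitted together, median-centred or quantile-normalized samples, a mean log2 value of at least 5, trended robust eBayes, voom weights, library size as a covariate, each sex alone and each mouse left out. Added after seeing the data were leaving out animal 10 or batch 1, 2 marker scores as covariates, and library size with numeric batch. Precision was limited by the spread between mice. A further marker score entered the adjustment of the 30 relations but is not reported here. The protein sequences were not used here.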

Additional observations from a re-analysis of the deposited data

Results flagged for a closer look

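The Id4 level of animal 48, an FC male of batch 5, lay apart from the other FC males. It was 7.96 log2 cpm, and the next of the 6 mice was at 7.67, a gap of 65.5% of the range of the set. Each member was checked in each group and sex, 18 sets in all, and this was the only set with such a gap. Chance alone marks about 1 in 20 sets.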

How the results depend on the processing

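The count of genes past the FDR threshold in EXT vs. TA was 2, and it was 1755 with a numeric batch term, 1614 with no batch term and 409 without batches 3 and 4. It was 1 with 3 groups fitted together, with a mean log2 value of at least 5 and in males alone, and 0 with voom weights, with library size as a covariate (also beside numeric batch), in females alone, without animal 10 and without batch 1. Leaving out 1 mouse at a time gave 0 to 472 in EXT vs. TA (0 for 17 of the 32 mice, 472 without animal 23, an EXT mouse of batch 3), 0 to 3 in FC vs. TA and 0 in EXT vs. FC. FC vs. TA had 3 at a mean log2 value of at least 5, EXT vs. FC 2 in males alone, male vs. female 597 with no batch term, and the pathway lists 10 in EXT vs. TA with numeric batch. The cause of these shifts was not tested.

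No group difference of a member moved by more than the pooled SD between mice, but this yardstick is wide. In EXT vs. TA that SD was 0.73 for Id2, 0.80 for Id3 and 0.37 for Id4, above the differences themselves. Even a change of sign can stay within it, so stability is not read from it. Leaving out 1 mouse kept Id2, Id3 and Id4 at 0.53 to 0.67, 0.58 to 0.81 and 0.35 to 0.45 in FC vs. TA, at 0.05 to 0.27, 0.09 to 0.40 and 0.17 to 0.32 in EXT vs. TA, and at -0.43 to -0.24, -0.51 to -0.17 and -0.11 to -0.02 in EXT vs. FC. In males alone Id2 and Id3 were at -0.08 and -0.13 in EXT vs. TA, and in females alone Id3 and Id4 at 0.08 and 0.07 in EXT vs. FC.

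Without batch 1 the sex difference of Id2 turned to -0.028, the sex interaction of Id4 in EXT vs. TA to 0.15 and that of Id3 in FC vs. TA to 0.17. The former interaction also turned from -0.01 to 0.14 without batches 3 and 4, 0.0062 with median-centred samples and 0.0452 with library size. With sex added to the sets, r turned to -0.0522 for Id3 with library size and -0.138 for Id3 with the choroid plexus score, and Id3 was no longer past the threshold with the GABAergic (r = -0.470) and glutamatergic (0.330) scores. Median-centring did the same for Id3 with the endothelial score (0.398). No paired analysis was possible because each mouse is in 1 group and the labels give no number shared between groups.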

Other observations

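In males alone, EXT vs. FC had 2 genes past an FDR of 0.05 in limma, Fabp7 at -1.46 (standard error 0.18, adjusted p = 0.00744) and Acsbg1 at -1.15 (0.17, adjusted p = 0.0271), which were named after their values were seen. Fabp7 encodes a fatty acid binding protein of radial glia and astrocytes, and Acsbg1 an acyl-CoA synthetase, and both stand on the astrocyte list. That list was chosen with earlier results of these data known, so nothing is read from their place on it. In the same 16 males the Id2 difference was -0.63 (standard error 0.20) and the Id3 difference -0.59 (0.24), while Id4 was at -0.16 (0.15). In females the Id values were -0.01, 0.08 and 0.07. Whether the sexes differ in EXT vs. FC was not tested.

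In the 5 EXT mice of batch 3 the astrocyte score averaged 0.898, and Id2 was 6.98 ± 0.16 (SD), Id3 5.72 ± 0.28 and Id4 7.35 ± 0.23 log2 cpm. No TA or FC mouse shares that batch. The 5 EXT mice of batch 5 had a mean score of -0.426 with Id2 at 6.57 ± 0.39, Id3 at 5.60 ± 0.75 and Id4 at 7.56 ± 0.36.

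Leaving out animal 10, all 5 of the genes most like each member stayed among the first 20.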
